A study of Mus musculus with 8 samples.

Results

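The cells described here are β-cells of mouse islets cultured for 18 h with the cytokines IL-1β and IFN-γ, without or with the nitric oxide synthase inhibitor NMMA. The members were chosen by measured values of each barcode. A β-cell was defined as a barcode with 200 to 5500 detected genes in replicate 1, or 200 to 6500 in replicate 2, no more than 10% of UMIs from mitochondrial genes, and 5000 UMIs or more. In addition, *Ins1* and *Ins2* had to make up at least 10% of its UMIs and at least 95% of those of *Ins1*, *Ins2*, *Gcg*, *Sst*, *Ppy* and *Pyy*. A UMI (unique molecular identifier) marks 1 captured mRNA molecule. This gave 2539 β-cells among the 7325 barcodes of the 4 libraries compared: 1087 and 453 with cytokines in replicates 1 and 2, and 621 and 378 with cytokines and NMMA. Over all 8 libraries of the series there were 5940 β-cells among 17426 barcodes. Islets came from male C57BL/6 mice (C57BL6/J in the study's methods) aged 12 to 16 weeks. For each replicate the islets of 10 mice were combined and then split between culture without additions, cytokines (IFN-γ at 150 U/mL with IL-1β at 10 U/mL), these cytokines plus 2 mM NMMA, and 2 mM NMMA without cytokines. Every value thus rests on 2 pools of islets, and the error given is the spread between pools, not between mice.

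Inducible nitric oxide synthase, the product of *Nos2*, makes nitric oxide from arginine, and NMMA is an arginine analogue that competes for the enzyme. IL-1β signals mainly through NF-κB, and IFN-γ through JAK kinases. Rodent β-cells given both make the enzyme in large amounts. Nitric oxide binds heme and iron-sulfur centres, so that it activates soluble guanylate cyclase and inhibits aconitase and the respiratory chain, and it can damage DNA. The comparison of cytokines with cytokines plus NMMA therefore asks which β-cell transcripts differ when the cytokine signal is given without and with this inhibitor. Intact islets were cultured, so nitric oxide made by β-cells and by other islet cells cannot be told apart. Nitric oxide itself was not measured in these files. In what follows, higher and lower mean higher or lower with cytokines than with cytokines plus NMMA, and levels are in CPM, the UMIs of a gene summed over the β-cells of a library and scaled to a common library size with TMM factors. A gene was called at an adjusted p under 0.05.

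The β-cells of the 4 libraries were similar in UMIs and insulin share, but fewer genes were detected without NMMA. The median β-cell had 24970 and 29740 UMIs with cytokines (replicates 1 and 2) and 28898 and 28187 with cytokines and NMMA, whereas the median number of detected genes was 3996 and 4306 against 4804 and 4810.5. The insulin genes made up a median of 33.6% and 37.4% of UMIs against 33.0% and 35.5%. Few barcodes lay at the insulin threshold. In the 4 libraries, 1 to 5 had an insulin share between 9% and 10%, and 0 to 5 had one between 10% and 11%. At the purity limit, 1 or 2 lay between 94% and 95% and 0 to 2 between 95% and 96%. Barcodes near the upper gene limit were not counted, and no alternative changed that limit. Of barcodes of all kinds, the gene and mitochondrial limits kept 1323 of 2146 and 1013 of 1345 with cytokines. With NMMA added they kept 937 of 2229 and 1193 of 1605. The mitochondrial limit removed 69 and 14 barcodes that met the other criteria with cytokines, against 110 and 13 with cytokines and NMMA. No 2 of these 4 libraries shared a β-cell barcode. Of 7 other β-cell markers (*Iapp*, *Slc2a2*, *Pdx1*, *Mafa*, *Nkx6-1*, *Ucn3* and *G6pc2*), each was detected in the 4 libraries. Markers of other cells ranged widely in level. The summed level of 8 endothelial markers was 2.08 and 2.78 CPM with cytokines and 6.26 and 6.85 CPM with NMMA added. That of 11 macrophage markers was 141 and 79.4 CPM against 186 and 90.1 CPM. The sum of 8 α-cell markers was 91.7 and 111 CPM against 116 and 111 CPM, and that of 8 mesenchymal markers 0.551 and 1.24 CPM against 0.594 and 0.267 CPM. The sum of 10 acinar markers was 641 CPM in cytokines replicate 2 and 73.5, 30.8 and 0.622 CPM in cytokines replicate 1 and the NMMA replicates 1 and 2, and none of these 10 was called. The sum of 5 δ-cell markers was 49.6 and 54.1 CPM against 93.98 and 126 CPM with none called, and that of 7 ductal markers 1104 and 909 CPM against 954 and 755 CPM. Of the endothelial markers *Esam* was called lower (-1.40) and of the ductal ones *Krt18* higher (0.70). The part of these cells in the results was not tested.

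*Nos2* was present in β-cells of both groups. It stood at 192 and 166 CPM with cytokines and at 462 and 457 CPM with cytokines and NMMA, and the groups did not overlap. The transcript was lower without the inhibitor by 1.36 on the log2 scale (log2 change -1.36, SE 0.18, edgeR adjusted p = 0.00387). Untreated β-cells had 0 *Nos2* UMIs in both replicates, so the level with cytokines was at least 3156-fold higher when 3 counts are allowed over the untreated group. NMMA acts on the enzyme, so its transcript is no check of the inhibitor. Of the other genes of arginine supply, tetrahydrobiopterin synthesis and arginase, 10 were tested and none was called.

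Without NMMA, β-cells had higher summed levels of the heat shock, ribosomal protein and iron lists in both replicates, and lower ones of the immunity-related GTPases, immediate early genes and β-cell transcription factors. The counts and tests of each group follow below. Of 12682 genes tested, 1127 (8.89%) were higher and 1306 (10.3%) lower at an adjusted p under 0.05 in edgeR's quasi-likelihood test. The 4 levels of 3651 genes (28.8%) did not overlap in the higher direction, and those of 3974 (31.3%) in the lower. At least 2-fold changes made up 164 of the higher and 555 of the lower calls, and at least 4-fold changes 15 and 95. With the replicate as a block, which compares libraries of the same islet pool, 2497 genes (19.7%) were higher and 2481 (19.6%) lower, and these held 2427 of the 2433 genes called without it, in the same direction. TMM factors were 0.892 and 0.892 with cytokines against 1.03 and 1.04 with NMMA added. Scaling by total UMIs instead moved the median change of all genes from -0.01 to -0.22 and the calls to 389 higher and 2293 lower, so each change below is relative to the median gene. Leaving out 1 library reduced the calls to 513 (without cytokines replicate 1), 750 (without NMMA-treated replicate 1), 801 (without NMMA-treated replicate 2) and 1798 (without cytokines replicate 2), and 124 of the higher and 261 of the lower genes were called in all 4 of these fits. Of 152 named genes called, 60 were called in all 4 of these fits and 24 in none: *Bak1*, *Bnip3l*, *Ddit3*, *Dnaja1*, *Edem1*, *Egln3*, *Fosb*, *Fth1*, *Gars*, *Icam1*, *Ifit2*, *Junb*, *Oasl2*, *P4ha2*, *Parp2*, *Pde1c*, *Pgk1*, *Plk2*, *Rela*, *Sel1l*, *Sesn1*, *Tapbp*, *Ttyh1* and *Uqcrb*. With total UMIs 22 lost their calls, which were *Bcl2l11*, *Farsb*, *Nnat*, *Uqcrb* and 18 that are given as such in their groups.

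**Figure D1:**
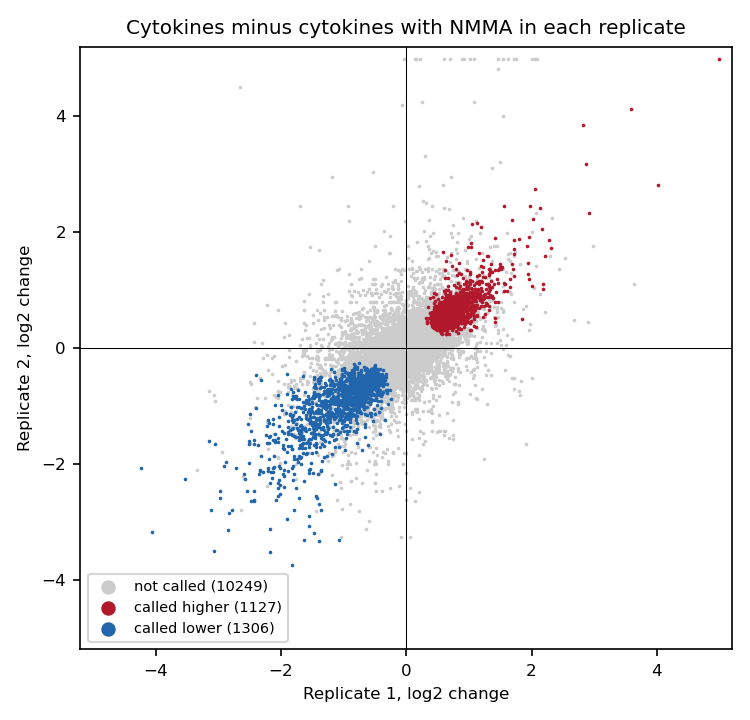
Log2 change of each of the 12682 genes tested, cytokines minus cytokines with NMMA, in replicate 1 (x axis) and replicate 2 (y axis), with 1127 genes called higher in red, 1306 called lower in blue and the others in grey. Values beyond 5 are drawn at 5, and the called genes lie in the 2 quadrants where both replicates have the same sign.

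Among genes with a mean level of at least 20 CPM, the 10 largest increases without NMMA were in genes of several functions. *Ccl2*, a chemokine that attracts monocytes, stood at 620 and 348 CPM with cytokines against 84.4 and 38.3 CPM with NMMA added. Both values without NMMA were above both values with it (log2 change 2.98, SE 0.50, adjusted p = 0.0143), and the call was lost without cytokines replicate 1 (adjusted p = 0.0709). *Cxcl1*, a neutrophil chemokine, followed with a log2 change of 2.10 (adjusted p = 0.00999), which was called in 1 of the 4 fits that left out a library. *Aldh5a1*, which degrades the GABA product succinic semialdehyde, had 85.1 and 54.0 CPM against 21.8 and 14.2 CPM (log2 change 1.94, adjusted p = 0.00362). *Trp53inp1*, a p53 target, had 91.3 and 86.2 CPM against 23.9 and 25.3 CPM (log2 change 1.85, SE 0.19, adjusted p = 0.0016). The remaining genes were *Ccng2* (1.79), which encodes a cyclin that restrains the cell cycle, *Grpel2* (1.68), a nucleotide exchange factor of mitochondrial HSP70, *Il4i1* (1.62), a secreted amino acid oxidase, *Cxcl16* (1.55), a membrane-bound chemokine, *Slc20a1* (1.49), a phosphate carrier, and *Ehd1* (1.45), an endocytic recycling protein.

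The 10 largest decreases at this level were of mixed function too. *Ttyh1* had the largest change among them, with 7.94 and 10.8 CPM against 58.0 and 95.8 CPM (log2 change -3.04, adjusted p = 0.0325), but it was called in 0 of the 4 fits that left out a library. The immediate early gene *Fos* had 4.92 and 4.87 CPM without NMMA and 43.4 and 34.4 CPM with it (log2 change -2.99, SE 0.28, adjusted p = 0.00168). *Pde10a*, a cyclic nucleotide phosphodiesterase, and *Hist1h1c*, a linker histone, had the smallest adjusted p among these genes. *Pde10a* stood at 16.04 and 16.8 CPM against 74.1 and 73.2 CPM (log2 change -2.17, SE 0.12, adjusted p = 0.000276), and *Hist1h1c* at 38.7 and 45.3 CPM against 190.0 and 200 CPM (log2 change -2.21, adjusted p = 0.000564). Their levels with cytokines and NMMA were close to those of untreated cells, where *Pde10a* had 63.5 and 71.6 CPM and *Hist1h1c* 180 and 157 CPM. *Steap4*, a metalloreductase, *Egr1*, an immediate early transcription factor, *Tgtp1* and *Iigp1*, GTPases of the interferon response, and *Plet1* had log2 changes from -2.43 to -2.04, and the numbered gene *Gm4841* of the immunity-related GTPase list made up the 10 (-2.56, adjusted p = 0.00185).

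**Figure D2:**
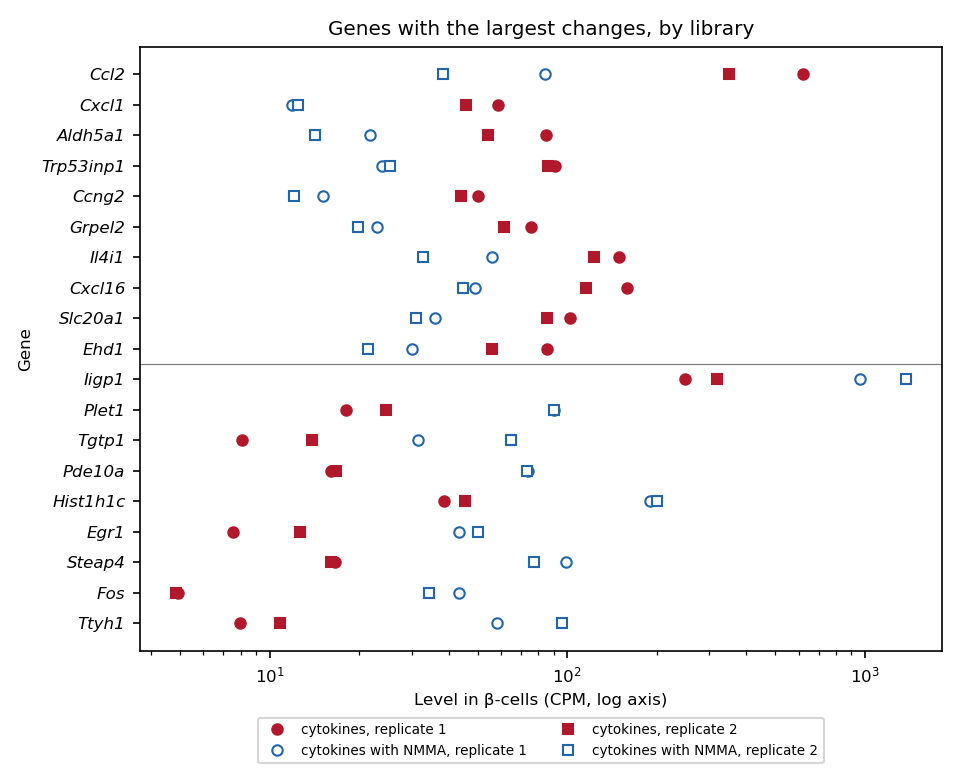
Levels in CPM on a log axis of the genes with the largest called changes, in each of the 4 libraries (red, cytokines; blue, cytokines with NMMA; circles, replicate 1; squares, replicate 2). For each gene shown, both red symbols lie on the same side of both blue symbols.

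Heat shock proteins were among the genes raised without NMMA. Cytosolic HSP90 and HSC70 fold client proteins, and HSPD1 with HSPE1 forms the folding chamber of mitochondria. Of 25 heat shock genes tested, 10 were higher and 1 lower (14 and 2 with the replicate block), and their median log2 change was 0.68 against -0.01 for all genes. *Hspa8*, the constitutive HSC70, had 3543 and 1898 CPM without NMMA, 1127 and 915 CPM with it, and 656 and 597 CPM in untreated cells (log2 change 1.41, SE 0.26, adjusted p = 0.0102). Cytokines replicate 1 was the highest of these values, and the call was lost without NMMA-treated replicate 2 (adjusted p = 0.0719). *Hsp90aa1*, the inducible HSP90, had 1981 and 1582 CPM against 754 and 733 CPM (log2 change 1.26, SE 0.19, adjusted p = 0.00441), and it was called in all 4 fits that left out a library. *Hspe1* had 542 and 577 CPM against 270.3 and 263 CPM (log2 change 1.07, adjusted p = 0.00385), and *Hspd1* a log2 change of 0.70 (adjusted p = 0.00898). The constitutive HSP90 gene *Hsp90ab1* (0.72) and the cochaperones *Stip1* (0.86), *Fkbp4* (0.72) and *Dnaja1* (0.65) were higher by less. The gene called lower was *Hspa2* (-0.84).

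The stress-inducible HSP70 genes were less certain. *Hspa1a* had 368 and 543 CPM against 241 and 328 CPM, and in untreated cells 53.1 and 226 CPM, so that the 2 pools differed within a condition (log2 change 0.68, SE 0.75, adjusted p = 0.585). *Hspa1b*, which is nearly identical in sequence and may share reads with it, had a log2 change of 0.75 (adjusted p = 0.709), *Hsph1* of 1.27 (adjusted p = 0.106) and *Dnajb1* of 1.02 (adjusted p = 0.218). None of these 4 was called, with or without the block, but *Dnajb1* was called in the fit of the 4 libraries alone (1.03, adjusted p = 0.0124). With total UMIs for scaling, 5 heat shock genes were called higher and 1 lower, and *Hsp90ab1*, *Fkbp4* and *Dnaja1* lost their calls. Over the 4 fits that left out a library, 3 to 10 were called higher.

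Promoters of heat shock genes carry the element bound by HSF1, and 4 are shown here because their genes were measured above. The core searched was GAANNTTC or TTCNNGAA on both strands, from 250 bases before to 50 after the start site, and capitals mark a match with 1 base on each side. Sequences are from RefSeq (GRCm38.p6), and each is a stretch of 80 bases around the match.
Hspe1, chr1:55088033-55088112 (+): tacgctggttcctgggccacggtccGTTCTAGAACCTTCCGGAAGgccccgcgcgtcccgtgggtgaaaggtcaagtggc
Dnaja1, chr4:40722308-40722387 (+): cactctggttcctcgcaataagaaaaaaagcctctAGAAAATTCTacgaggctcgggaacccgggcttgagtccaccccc
Fkbp4, chr6:128438764-128438843 (-): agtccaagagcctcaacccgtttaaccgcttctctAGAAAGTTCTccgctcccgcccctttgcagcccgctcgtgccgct
Hspa1a, chr17:34972217-34972296 (-): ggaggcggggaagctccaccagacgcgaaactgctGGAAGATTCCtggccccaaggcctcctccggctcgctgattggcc
The window of *Hspe1* holds 3 overlapping or adjacent matches, and that of *Hspd1*, which is transcribed from the opposite strand, overlaps it. The core was present in 12 (48%) of the 25 promoters found for 19 genes of the list, and in 15% of 32851 mouse promoters. *Hspe1*, *Dnaja1* and *Fkbp4* were called higher and *Hspa1a* was not, so the core was found on both sides of the threshold. No promoter of *Hspa8* or *Hsp90aa1* was used.

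The integrated stress response had few calls, and genes of the unfolded protein response of the endoplasmic reticulum were lower where they were called. The first raises *Atf4* translation and then CHOP (*Ddit3*) and amino acid genes when the initiation factor eIF2α is phosphorylated. Of 26 of its genes tested, 3 were higher and 1 lower, with a median log2 change of 0.21. Over all genes tested, 8.89% were higher and 10.3% lower. *Ddit3* had 636 and 513 CPM without NMMA against 256 and 212 CPM with it (log2 change 1.30, SE 0.34, adjusted p = 0.0391). The call was lost with the replicate block (adjusted p = 0.127), with total UMIs for scaling and in each fit that left out a library. *Nupr1*, a stress-inducible chromatin protein, had 1042 and 1298 CPM against 668 and 460 CPM (log2 change 1.05, adjusted p = 0.0232; 0.108 with the block), and *Ppp1r15a* (GADD34), which directs eIF2α dephosphorylation, had a log2 change of 0.80 (adjusted p = 0.00782). *Atf4* (0.25) and *Atf3* (0.57) were not called. For untreated cells against NMMA alone, the median of the integrated stress response list was -0.50. *Atf4* had 153 and 167 CPM in untreated cells and 246 and 212 CPM with NMMA alone. The difference between the NMMA effects with and without cytokines was called higher for 2 of the list and lower for 1 (12 and 1 with the block). For *Atf4* and *Atf3* it was called with the block only (edgeR adjusted p = 0.00694 and 0.0162). *Vldlr*, a lipoprotein receptor, was lower (-1.68, adjusted p = 0.00183).
The promoter of *Nupr1* holds 1 match to the composite C/EBP-ATF element TGATGNAA (capitals, here on the other strand), which was present in 9 of 31 promoters of the list (29%) and in 3.97% of all promoters. Among the genes named here the element was also found for *Vldlr*, called lower, and *Atf3*, not called.
Nupr1, chr7:126625537-126625616 (-): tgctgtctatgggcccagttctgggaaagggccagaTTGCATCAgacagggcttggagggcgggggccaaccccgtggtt
Over all genes tested, 10.3% were lower, and 19.6% with the block. Of 24 chaperones and quality control genes of the endoplasmic reticulum, 0 were higher and 5 lower (15 lower with the block, 13 with total UMIs), with a median of -0.40. When a library was left out, 0 to 2 were called lower. The 5 were *Pdia4* (-0.77), *Dnajb11* (-0.73), *Sel1l* (-0.60), *Edem1* (-0.54) and *Ssr1* (-0.46). For untreated cells against NMMA alone, without cytokines, the median of this list was -0.31. The difference between the NMMA effects with and without cytokines was called for 0 of its genes (2 higher and 5 lower with the block). *Hspa5*, which encodes BiP, had 1594 and 1440 CPM against 1777 and 1684 CPM and was not called (log2 change -0.19, adjusted p = 0.386).

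Targets of p53 and DNA repair genes were mixed. Of 20 p53 targets, 5 were higher and 0 lower (11 and 2 with the block), with a median of 0.46. Beside *Trp53inp1* these were *Plk2* (0.84), a kinase, *Gadd45a* (0.81), a growth arrest gene, *Sesn1* (0.64), a sestrin, and *Mdm2* (0.40), the ligase that degrades p53. With total UMIs, *Trp53inp1* alone of the list was called higher. *Cdkn1a* (p21), the cell cycle inhibitor, had 70.0 and 81.6 CPM without NMMA against 96.7 and 102 CPM with it and was not called (log2 change -0.39, adjusted p = 0.22; 0.0204 with the block). Without cytokines it had 25.1 and 40.9 CPM in untreated cells against 57.5 and 65.4 CPM with NMMA alone. That change was the larger one (log2 change -0.90, edgeR adjusted p = 0.467; 0.0046 with the block). Of 18 DNA damage and repair genes, *Apex1* and *Gadd45a* were higher and 2 lower. *Apex1*, the endonuclease that cuts at abasic sites in base excision repair, had 23.3 and 19.1 CPM against 9.18 and 7.47 CPM (log2 change 1.34, SE 0.17, adjusted p = 0.00262), and it was called in all 4 fits that left out a library. *Atm* (-0.77) and *Parp2* (-0.46) were lower.

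Iron genes include both direct targets of iron regulatory proteins and carriers. These proteins bind hairpins in mRNA when iron is scarce, which blocks translation from a hairpin in the 5′ UTR and protects the mRNA from decay at a hairpin in the 3′ UTR. Of 12 iron genes, 5 were higher and 1 lower (8 and 2 with the block, 3 and 3 with total UMIs), and their median was 0.55. *Tfrc*, the transferrin receptor that brings iron in, had 86.4 and 94.8 CPM without NMMA, 35.9 and 40.4 CPM with it, and 46.2 and 60.0 CPM in untreated cells. The values without NMMA were above all others (log2 change 1.25, SE 0.16, adjusted p = 0.0027). *Slc40a1* (ferroportin), the iron exporter, had 12.9 and 15.8 CPM against 5.61 and 7.02 CPM (log2 change 1.19, adjusted p = 0.00399), but 24.1 and 28.0 CPM in untreated cells, above both groups. *Slc11a2* (DMT1), an iron importer, had a log2 change of 0.75 (adjusted p = 0.00735), *Fth1* (ferritin heavy chain) of 0.58 (adjusted p = 0.017) and *Slc25a28*, a mitochondrial iron carrier, of 0.54 (adjusted p = 0.0353). *Fth1* and *Slc25a28* lost their calls with total UMIs. *Ftl1* (ferritin light chain) had a log2 change of 0.55 (adjusted p = 0.0805; 9.39e-05 with the block). *Ireb2*, which encodes iron regulatory protein IRP2, was lower (-0.63, adjusted p = 0.00905), and *Aco1*, which encodes IRP1 or, with its iron-sulfur cluster, cytosolic aconitase, was not called (-0.39, adjusted p = 0.0969).

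The hairpins are shown because they are the sequences that iron regulatory proteins bind, and only some of the iron genes carry them. The transcripts of GENCODE M21 (GRCm38) were searched for a loop CAGTG, followed by any base but G, between 5 paired bases. Pairs of G with T were allowed, and an unpaired C had to lie on the 5′ side of the paired bases. This search was chosen after the levels were seen. Capitals mark the loop.
Tfrc 3′ UTR, chr16:32631220-32631247 (+): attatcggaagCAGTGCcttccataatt
Tfrc 3′ UTR, chr16:32631599-32631626 (+): attatcgggagCAGTGTcttccataatg
Tfrc 3′ UTR, chr16:32631664-32631691 (+): tatatcggagaCAGTGAtctccatatgt
Tfrc 3′ UTR, chr16:32631711-32631738 (+): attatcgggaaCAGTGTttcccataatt
Slc40a1 5′ UTR, chr1:45925465-45925492 (-): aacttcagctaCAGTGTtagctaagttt
Fth1 5′ UTR, chr19:9982733-9982760 (+): tcctgcttcaaCAGTGCttgaacggaac
Ftl1 5′ UTR, chr7:45459779-45459806 (-): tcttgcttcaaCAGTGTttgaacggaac
A match was found in 4 of the 12 iron genes (33.3%) and in 222 of 21877 protein-coding genes (1.01%). *Tfrc* alone of the 4 had matches in the 3′ UTR, 4 of them. The 4 genes were higher or, for *Ftl1*, not called, whichever UTR held the match.

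Antioxidant genes of the Nrf2 pathway were called about as often as all genes. Of 22 tested, 3 were higher and 1 lower (6 and 2 with the block), and with total UMIs 0 were higher and 3 lower. *Gclc* and *Gclm*, the subunits of the enzyme that limits glutathione synthesis, and *Abcc1*, a glutathione conjugate exporter, had log2 changes of 0.62, 0.62 and 0.63, and their calls were lost with total UMIs. *Txn1* (thioredoxin) had 133 and 133 CPM without NMMA, 378 and 282 CPM with it, and 132 and 120 CPM in untreated cells (log2 change -1.31, SE 0.18, adjusted p = 0.0036). *Hmox1* (heme oxygenase 1), which frees iron from heme, had 536 and 221 CPM against 249 and 108 CPM. Each replicate was about 1 log2 unit higher without NMMA, but cytokines replicate 2 was below NMMA-treated replicate 1 (log2 change 1.08, SE 0.55, adjusted p = 0.233; 0.108 with the block). *Nqo1* (1.17) was called only with the block (adjusted p = 0.0529; 0.0023 with it). The metallothioneins *Mt1* and *Mt2*, which bind zinc, had 6746 and 8100 CPM and 2712 and 3051 CPM without NMMA and were not called (0.46 and 0.60).

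Transcripts of the translation machinery were higher as a group of small changes. Of 78 cytosolic ribosomal protein genes, 44 were higher and 0 lower, and the log2 changes of all 78 lay between 0.08 and 0.73, with a median of 0.53. *Rps7* had 1380 and 1485 CPM without NMMA against 853 and 876 CPM with it, and 903 and 927 CPM in untreated cells (log2 change 0.73, SE 0.12, adjusted p = 0.0065). *Rpl17* (0.69), *Rps27a* (0.65) and *Rpl12* (0.65) were higher too, and *Rpl10* had the same change as *Rps7* with a larger error (0.73, SE 0.23, adjusted p = 0.0582; 4.95e-06 with the block). With the block 74 of the 78 were higher, with total UMIs 6, with cells thinned to 5000 UMIs 10, and in the fits that left out a library 1 to 17. Of 50 initiation and elongation factors, 19 were higher and 1 lower (32 and 3 with the block, 7 and 3 with total UMIs). *Eif5*, which triggers GTP hydrolysis by eIF2, had 461 and 491 CPM against 259 and 264 CPM (log2 change 0.87, adjusted p = 0.00801), and *Eif3e* (0.84), *Eif6* (0.84), *Eif3g* (0.77), *Eif1* (0.74) and *Eif2b3* (0.74) were higher too. Of 20 aminoacyl-tRNA synthetases, 1 was higher and 3 lower, and with the block 6 were higher and 2 lower. *Farsb* was higher (0.68), and *Lars* (-0.59), *Gars* (-0.54) and *Wars* (-0.73, adjusted p = 0.0475; 0.106 with the block) were lower.

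Mitochondrial lists had small positive medians, while single genes went the other way. The medians were 0.31 for mitochondrial ribosomal proteins, 0.19 for oxidative phosphorylation and 0.25 for the citric acid cycle. Over all genes tested, 8.89% were higher and 10.3% lower. Of 77 mitochondrial ribosomal protein genes, 19 were higher and 1 lower (7 and 3 with total UMIs), led by *Mrps6* with 21.6 and 19.2 CPM against 8.53 and 7.91 CPM (log2 change 1.31, adjusted p = 0.00387). *Mrpl9* (0.93), *Mrpl19* (0.92) and *Mrpl12* (0.82) were also higher. Of 85 nuclear genes of oxidative phosphorylation, 6 were higher and 2 lower, and with the block 37 were higher and 5 lower. The 2 lower genes had larger changes than the higher ones. *Ndufa4*, a subunit of cytochrome c oxidase, had 76.1 and 92.1 CPM without NMMA, 280 and 237 CPM with it, and 292 and 244 CPM in untreated cells (log2 change -1.62, SE 0.18, adjusted p = 0.00185). *Ndufc2* of complex I had a log2 change of -0.86 (adjusted p = 0.00654), against 0.67 for *Ndufa12* of the same complex and 0.57 for *Uqcrb* of complex III. Of 22 genes of the citric acid cycle and its entry, 3 were higher and 2 lower. Pyruvate carboxylase (*Pcx*), which refills the cycle from pyruvate, had 10.8 and 10.1 CPM against 31.7 and 23.3 CPM (log2 change -1.39, adjusted p = 0.00219), and fumarase (*Fh1*) 43.4 and 34.9 CPM against 82.1 and 80.8 CPM (log2 change -1.05, adjusted p = 0.00351). *Dld* (0.88), a subunit of the dehydrogenase complexes, and *Idh3b* (0.68) were higher.

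Transcripts of the mitochondrial genome entered the definition of the β-cells through the 10% limit, so they are given as shares of UMIs with no test. *mt-Nd1* made up 0.0553% and 0.0656% of UMIs without NMMA against 0.162% and 0.132% with it, and *mt-Nd3* 0.00903% and 0.0224% against 0.0532% and 0.0765%. Of the complex I subunits, *mt-Nd5* overlapped between the groups (0.0337% and 0.0339% against 0.0316% and 0.0420%), and the others were lower without NMMA in both replicates. Among the cytochrome c oxidase subunits, *mt-Co1* was at 0.968% and 0.826% against 0.778% and 0.678%. The shares of *mt-Co2* (0.656% and 0.603% against 0.770% and 0.637%) and *mt-Co3* (0.866% and 0.695% against 1.01% and 0.732%) overlapped between the groups. On the CPM scale used elsewhere, *mt-Co1* was higher too, with 10857 and 9259 against 7571 and 6535 CPM. There *mt-Co2* (7363 and 6760 against 7498 and 6140 CPM) and *mt-Co3* (9716 and 7788 against 9818 and 7058 CPM) changed direction between replicates. The insulin genes, also part of the definition, were at 27.7% and 30.7% against 25.8% and 27.7% for *Ins2* and at 7.37% and 8.12% against 8.37% and 9.11% for *Ins1*. In CPM *Ins1* had 82680 and 90949 against 81482 and 87836, so its direction within each replicate depended on the scaling.

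**Figure D3:**
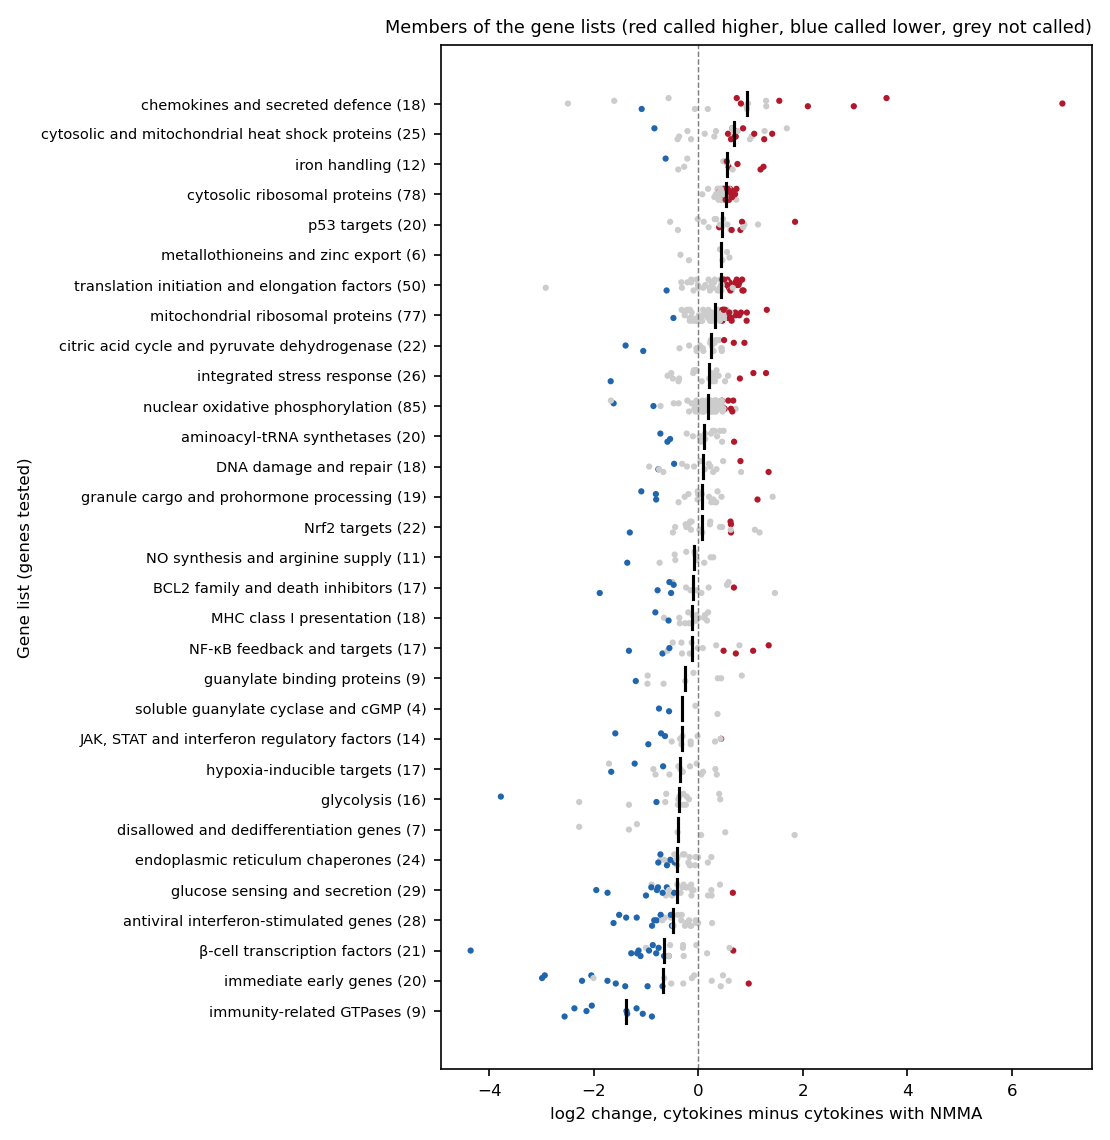
Log2 change, cytokines minus cytokines with NMMA, of the tested members of each gene list (points) with the list's median (black bar), and the number tested in parentheses. Members called higher are red, members called lower blue and the others grey, and all members of the immunity-related GTPase list are blue.

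Secreted chemokines and NF-κB targets went both ways. Of 18 chemokines and secreted defence genes, 7 were higher and 1 lower, with a median of 0.93 and with 3 to 7 higher in the fits that left out a library. Beside *Ccl2*, *Cxcl1* and *Cxcl16*, these were *Cxcl2* (3.603, adjusted p = 0.00274), a neutrophil chemokine with 196 and 89 UMIs without NMMA and 7 and 10 with it, *Csf1* (0.74), the macrophage growth factor, and *Defb1* (0.82), a defensin. The call of *Defb1* was lost with total UMIs and without cytokines replicate 1 or NMMA-treated replicate 2. *Tac1*, the precursor of substance P, had the largest change of the list (log2 change 6.97, SE 0.81, adjusted p = 0.00313). It rested on few cells. The 177 and 266 UMIs without NMMA were carried to 97.2% and 98.5% by the top 11 and 5 cells, against 1 and 2 UMIs with NMMA (ratio of the scaled sums 115, 95% exact interval 39.0 to 558, counting error only). *Cxcl10*, an interferon-induced chemokine that attracts T cells, went the other way, with 266 and 129 CPM against 1625 and 604 CPM (log2 change -2.50, SE 0.69, adjusted p = 0.0677). Both values without NMMA were below both values with it, the pools differed within each group, and the gene was called with the block (adjusted p = 6.77e-08). *Cxcl9* (0.92) was not called. The gene called lower was *C3* (-1.08), which encodes complement component C3.

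Of 17 NF-κB targets and feedback genes, 4 were higher and 3 lower. The 4 higher ones, *Icam1* (1.35), an adhesion receptor, *Nfkb2* (1.05) and *Rela* (0.48), subunits of NF-κB, and *Tnip1* (0.72), a partner of the inhibitor A20, lost their calls with total UMIs, and 7 genes were lower there. *Icam1* had 256 and 208 CPM against 110.1 and 72.5 CPM (adjusted p = 0.042), and it was called in 0 of the 4 fits that left out a library. *Zc3h12a* (regnase-1), a nuclease that degrades inflammatory mRNA, was lower, with 15.8 and 11.4 CPM against 36.3 and 32.4 CPM (log2 change -1.33, adjusted p = 0.0046), as were *Bcl3* (-0.69) and *Cflar* (-0.55), an inhibitor of caspase-8.

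Interferon-stimulated genes were lower where they differed. All 9 immunity-related GTPases tested, which attack vacuoles of intracellular microbes, were lower, with a median of -1.38. *Iigp1* had 249 and 317 CPM without NMMA against 962 and 1369 CPM with it, and 0.224 and 0.312 CPM in untreated cells (log2 change -2.04, SE 0.20, adjusted p = 0.00145). *Ifi47* (-1.38), *Igtp* (-1.18), *Irgm2* (-1.06) and *Irgm1* (-0.89) were lower by less, and *Tgtp1* (-2.14) and *Tgtp2* (-2.37) are near-identical copies between which reads may have been divided. In the fits that left out a library 6 to 8 of the 9 were called. Of 28 antiviral genes, 0 were higher and 10 lower, led by *Eif2ak2* (-1.52), the kinase PKR, *Ifi44* (-1.62) and *Samhd1* (-1.38), a nucleotide hydrolase. *Ifit2* (-0.72) and *Oasl2* (-0.89) were lower as well, while *Isg15*, a ubiquitin-like protein, had 81.6 and 55.8 CPM against 103 and 77.4 CPM and was not called.

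The guanylate binding proteins, a second family of interferon-induced GTPases, differed among themselves. Of 9 tested, only *Gbp7* was called, with 164 and 162 CPM against 333 and 417 CPM (log2 change -1.20, adjusted p = 0.00224). *Gbp4* had 373 and 269 CPM against 689 and 570 CPM (-0.97, adjusted p = 0.0588; 7.14e-05 with the block), *Gbp10* a log2 change of -0.97 (adjusted p = 0.053; 2.7e-05 with the block) and *Gbp3* of 0.44 (adjusted p = 0.173; 0.0107 with the block). *Gbp2* had 1298 and 845 CPM against 1296 and 1254 CPM (-0.25), and *Gbp5* had a log2 change of -0.09, and neither was called. Of the 14 JAK, STAT and IRF genes, *Jak1* (0.44) was higher and 4 were lower. *Socs1*, the inhibitor of JAK kinases, had 37.4 and 32.8 CPM against 118 and 93.96 CPM, and 0.953 and 0.749 CPM in untreated cells (log2 change -1.59, SE 0.18, adjusted p = 0.00185). *Irf1*, an interferon-induced transcription factor, had 180 and 180 CPM against 291 and 270.1 CPM (-0.64, adjusted p = 0.00932), *Irf2* a log2 change of -0.71 and *Socs3* of -0.96. Of 18 genes of MHC class I presentation, 2 were lower, the peptide transporter *Tap1* (-0.82) and its partner *Tapbp* (-0.57). That is near the share over all genes, of which 10.3% were lower. With the block 4 of the 18 were lower, against 19.6% of all genes.

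Immediate early genes, which follow calcium and growth signals within minutes, were lower without NMMA. Of 20 tested, 9 were lower and 1 higher (10 and 3 with the block), with a median of -0.67. *Egr1* had 7.51 and 12.7 CPM without NMMA, 43.1 and 50.2 CPM with it, and 73.6 and 105 CPM in untreated cells (log2 change -2.23, adjusted p = 0.00304). *Fos*, given above, had 32.2 and 38.1 CPM in untreated cells, at the level with NMMA. The nuclear receptor *Nr4a2* (-2.94, adjusted p = 0.00521), *Fosb* (-2.05, adjusted p = 0.0315; 0.126 with the block), *Ier3* (-1.74), *Ier2* (-1.58), *Fosl2* (-1.40), *Btg1* (-0.97) and *Junb* (-0.69) were lower too. *Myc* was the gene called higher (0.96, adjusted p = 0.0118).

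Transcription factors that maintain β-cell identity were lower without NMMA. Of 21 tested, 11 were lower and 1 higher (15 and 2 with the block, 15 and 0 with total UMIs), with a median of -0.66. *Isl1* had 41.3 and 45.4 CPM without NMMA, 103 and 109 CPM with it, and 119 and 124 CPM in untreated cells (log2 change -1.28, SE 0.13, adjusted p = 0.00145). *Pdx1*, an activator of the insulin gene, had 20.8 and 20.1 CPM against 46.0 and 46.1 CPM, and 128 and 116 CPM in untreated cells (log2 change -1.17, SE 0.16, adjusted p = 0.00328). *Mafa* had 37.9 and 44.3 CPM against 77.2 and 104 CPM, far below the 606 and 464 CPM of untreated cells (log2 change -1.15, SE 0.20, adjusted p = 0.00763), and its call was lost without cytokines replicate 1 (adjusted p = 0.0651). With NMMA alone *Mafa* stood at 289 and 241 CPM. Thus *Isl1* with NMMA was near its untreated level, whereas *Pdx1* and *Mafa* with NMMA remained below theirs. *Pax6* (-1.11), *Rfx3* (-0.94), *Neurod1* (-0.81), *Nkx2-2* (-0.76) and *Foxa2* (-0.66) were lower, and *Neurog3*, an endocrine progenitor factor, was lower from at most 0.80 CPM (-4.36). *Nkx6-1* was not called (-0.04, adjusted p = 0.89).

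Of 29 genes of glucose sensing and secretion, 9 were lower and 1, the cation channel *Trpm5* (0.66), higher. *G6pc2*, the islet glucose-6-phosphatase, had 82.6 and 86.8 CPM without NMMA, 292 and 365 CPM with it, and 288 and 311 CPM in untreated cells (log2 change -1.95, SE 0.16, adjusted p = 0.00113). The fatty acid receptor *Ffar1* had 12.03 and 23.2 CPM against 51.5 and 65.1 CPM (log2 change -1.74, adjusted p = 0.00807). *Rab27a* (-1.002), *Syt13* (-0.77) and *Kcnma1* (-0.90) were lower as well. The glucose carrier *Slc2a2* had 9.59 and 9.96 CPM against 9.99 and 12.9 CPM and was not called (-0.22, adjusted p = 0.532), and both groups were far below the 131 and 87.2 CPM of untreated cells. Of 19 granule genes, 3 were lower and 1, *Nnat* (1.13), higher, and with the block 4 were lower and 8 higher. The prohormone convertase *Pcsk1* had 83.0 and 66.2 CPM against 163 and 155 CPM (log2 change -1.09, adjusted p = 0.0034), and *Chgb* (chromogranin B, -0.81) and the amidating enzyme *Pam* (-0.81) were the others. *Ucn3*, a marker of mature β-cells, was not called (0.44, adjusted p = 0.119; 0.03003 with the block).

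**Figure D4:**
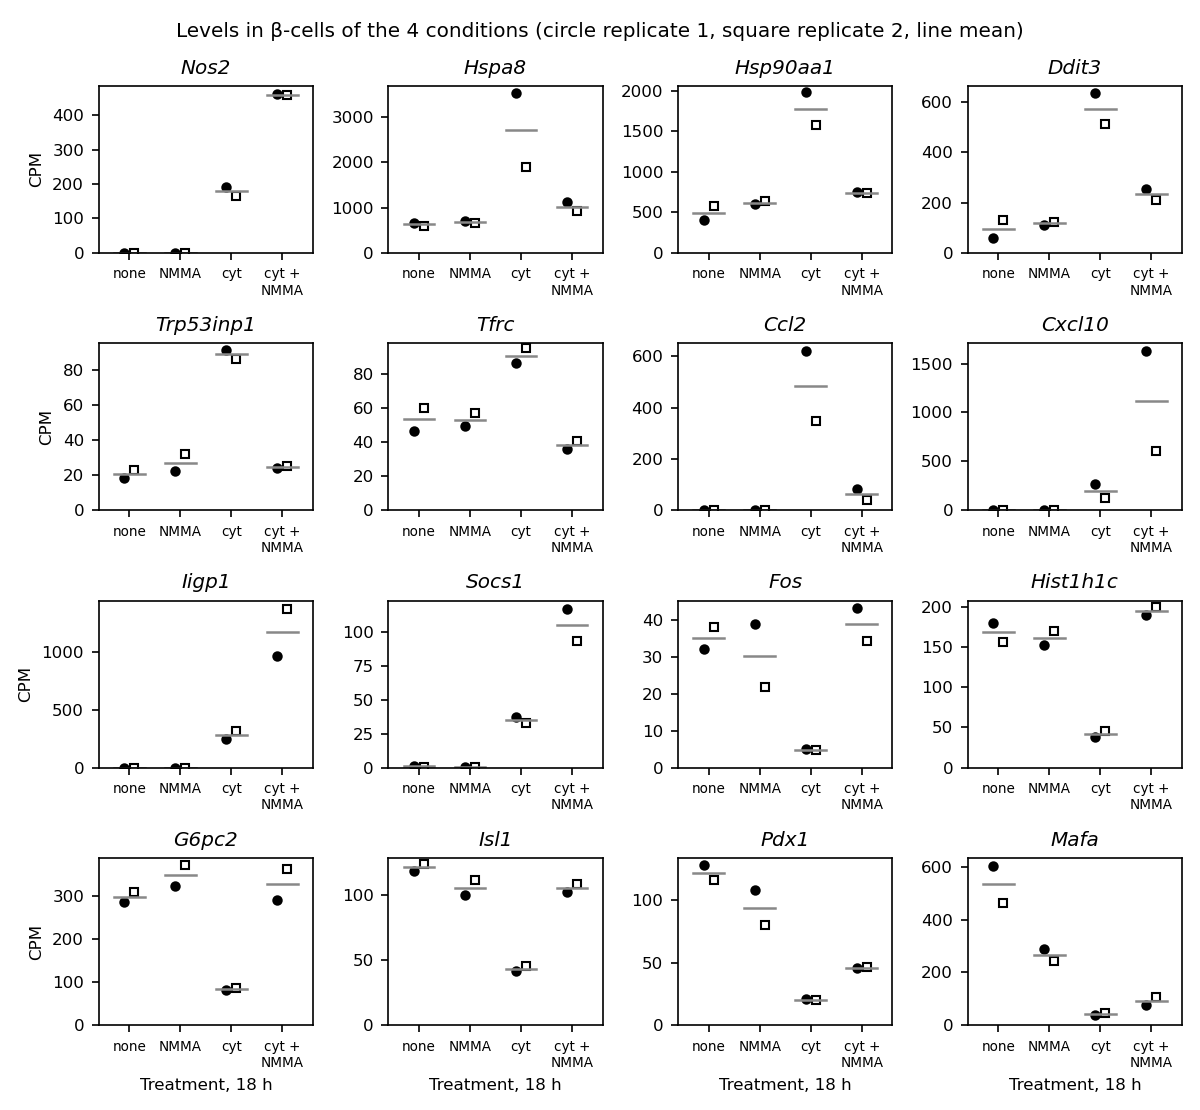
Levels in CPM of 16 genes in β-cells of the 4 conditions (none, NMMA, cyt for cytokines, cyt + NMMA), with replicate 1 as circles, replicate 2 as squares and the mean as a line. *Hist1h1c*, *G6pc2* and *Isl1* with cytokines and NMMA lie near their untreated levels, and *Nos2* is at 0 or near it without cytokines.

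Genes of glycolysis were lower mainly in the fit with the replicate block. Of 16 glycolytic genes 2 were lower without the block and 9 with it, 14 did not overlap in the lower direction, and the median was -0.37. The 2 were the lactate carrier *Slc16a3* (-3.78, adjusted p = 0.019) and *Pgk1* (-0.80). *Slc16a3* had 7 and 14 UMIs without NMMA and 115 and 119 with it. *Ldha*, a gene that mature β-cells hold silent, had 7.16 and 16.5 CPM against 55.6 and 57.3 CPM (-2.28, adjusted p = 0.0677; 0.0134 with the block). Of 17 targets of hypoxia-inducible factors 3 were lower, *Egln3* (-1.67), *P4ha2* (-1.22) and *Bnip3l* (-0.67), and in the fits that left out a library none was called. Of 17 BCL2 family and death genes 5 were lower and 1 higher. The killers *Bik* (-1.89), *Bak1* (-0.78) and *Bad* (-0.52) and the protectors *Cflar* (-0.55) and *Bcl2l2* (-0.47) were lower, and *Bcl2l11* (BIM) was higher (0.68). *Bik* was at a low level, with 0.944 and 0.618 CPM against 3.62 and 2.31 CPM. *Bad* was not called by DESeq2 (adjusted p = 0.0539) or by edgeR in the 4 libraries alone (adjusted p = 0.0542). *Bbc3* (PUMA) was not called (0.56, adjusted p = 0.0735; 0.0157 with the block). Of 4 genes of soluble guanylate cyclase and cyclic GMP, the phosphodiesterases *Pde5a* (-0.75) and *Pde1c* (-0.56) were lower. *Gucy1b1*, the β subunit of the cyclase, was not called (0.37). *Jak1*, *Trpm5*, *Ssr1* and *Bcl2l2* were named after their values were seen, since they complete a count.

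Without cytokines, the effect of NMMA depended on the replicate block. Between untreated and NMMA-treated β-cells 0 genes (0%) were called by edgeR without the block, 934 had an unadjusted p under 0.05, and DESeq2 called 15. With the block, which compares libraries of the same islet pool, 200 genes were higher and 160 lower in untreated cells. The difference between the effects of NMMA with and without cytokines was called higher for 191 genes (1.51%) and lower for 325 (2.56%). *Pde10a* had the smallest adjusted p (difference -2.45, SE 0.17, adjusted p = 0.00152), followed by *Scd2*, a fatty acid desaturase (-1.95), *Hist1h1c* (-2.28), *Nipal1*, a magnesium transporter (-1.91), and *Ier2* (-1.90). *Scd2* itself had 17.4 and 18.4 CPM with cytokines, 59.5 and 53.7 CPM with NMMA added, and 77.6 and 68.1 CPM in untreated cells.

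How the changes were distributed over cells is given by the percentage of β-cells in which a gene had any UMI, once every cell was thinned to 5000 UMIs. *Nos2* was found in 37.1% (exact 95% interval 34.2 to 40.02) and 34.2% (29.9 to 38.8) of β-cells without NMMA and in 56.4% (52.4 to 60.3) and 48.4% (43.3 to 53.6) with it, and before thinning in 59.9%, 56.1%, 77.1% and 65.3%. The intervals cover counting error only. *Trp53inp1* was found in 29.4% and 29.6% against 10.1% and 14.0% and *Tfrc* in 29.9% and 32.7% against 16.6% and 18.3%, while *G6pc2* was found in 27.0% and 31.8% against 56.5% and 60.6% and *Pdx1* in 8.10% and 7.73% against 22.2% and 23.3%. In barcodes of the same libraries with endothelial markers, 17 to 30 per library at a median of 13633 to 16346 UMIs before they were thinned to the same 5000 UMIs, the shares of *G6pc2* and *Pdx1* were 0% to 3.33%, that of *Nos2* 17.6% and 20.8% against 33.3% and 36.7%, and that of *Ccl2* 41.2% and 54.2% against 38.9% and 46.7%. *Ccl2* was in 29.99% and 26.5% of β-cells against 11.9% and 7.94%, and before thinning in 44.5% and 42.6% against 26.9% and 20.6%. *Iigp1* was in 46.6% and 46.8% against 79.2% and 74.6%, and its endothelial share was 94.1% to 100%. Endothelial cells may express *Ccl2* and *Iigp1* themselves, so for these genes their share is no measure of free RNA, whose part was not tested. Before thinning, *Trp53inp1* was in 67.3% and 71.1% against 42.03% and 41.0%, and *G6pc2* in 68.3% and 72.2% against 87.3% and 86.2%. The shares of *Ccl2*, *Trp53inp1*, *Tfrc*, *G6pc2* and *Iigp1* were chosen for display after their levels were seen.

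**Figure D5:**
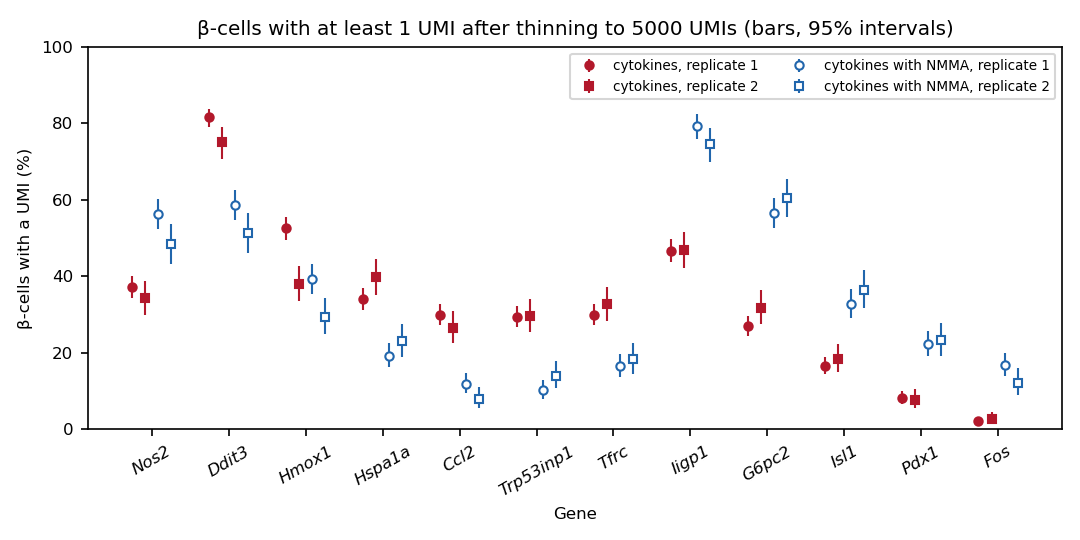
Percentage of β-cells (y axis) in which each gene had any UMI, at 5000 UMIs per cell, in the 4 libraries (red, cytokines; blue, cytokines with NMMA; circles, replicate 1; squares, replicate 2; bars, exact 95% intervals). *Ddit3* reached 81.6% and 75.1% without NMMA and 58.8% and 51.3% with it, and *Fos* 2.02% and 2.65% against 16.7% and 12.2%.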

How the data were processed

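Members and gene lists were chosen with earlier results of these data known. Named genes were the 10 largest called changes in each direction with at least 20 CPM and the same sign in both replicates, up to 4 members of each list with the smallest adjusted p, members whose role is described, genes the study names, and 5 genes of the difference between NMMA effects; some members of the lists are not reported here. The authors deposited a raw UMI count matrix per library, made with Cell Ranger (mm10, per the submitters' processing notes; matrix headers give version 3.0.0 for replicate 1 and 6.0.0 for replicate 2). Library totals were 26549922 to 50731370 UMIs. The 30406 gene IDs in both replicates (of 31053 and 32285) held at least 99.7% of UMIs. No doublet caller was run, and the purity limit removed barcodes with other islet hormones.

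UMI counts of β-cells were summed per library and fitted over all 8 libraries with edgeR 4.0.16 in R 4.3.3 (filterByExpr, TMM, robust quasi-likelihood F test, Benjamini-Hochberg over 12682 genes, threshold 0.05). With 2 libraries against 2 an exact permutation test cannot pass 0.05. The residual degrees of freedom are 4, and 3 with the replicate block. Libraries of a replicate come from 1 islet pool, as the methods state. As a check, deviations from condition means correlated within replicates with r of 0.474 to 0.703 over 6 pairs of conditions, genes not being independent. In simulated data, 29.3% of 198 2-fold changes were recovered for this comparison (10 false calls, 12478 genes). With the block 28.8% were recovered, with 12 false calls. The simulated libraries held no differences between islet pools, so they cannot show what the block gains in the real data. In both fits the false calls made up a larger share of all calls than the threshold of 0.05. Alternatives were the block, the 4 libraries alone, other scalings, filters and cell limits, thinning, DESeq2 1.42.0 and leaving out each library. Tables were made in Python 3.11.15 (pandas 2.3.3, scipy 1.17.1, numpy 2.4.6).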

Additional observations from a re-analysis of the deposited data

Results flagged for a closer look

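For the named genes below, the effect of NMMA differed between cells with and without cytokines, by the test of that difference in edgeR (adjusted p under 0.05). Each value is the log2 change of cytokines against cytokines with NMMA, minus that of untreated cells against NMMA alone, and both contrasts are from the same fit.

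The difference was negative for 38 genes. In genes of the interferon response and its feedback it was *Iigp1* (-3.18), *Socs1* (-2.83), *Ifi44* (-2.34), *Samhd1* (-1.73), *Eif2ak2* (-1.46) and *Gbp7* (-1.09). *Iigp1* had only 8 and 5 UMIs in untreated cells and 2 and 2 with NMMA alone. Its change without cytokines therefore rests on few counts, and *Socs1* was also low in untreated cells. In immediate early genes it was *Fos* (-3.20), *Nr4a2* (-2.73), *Egr1* (-2.69), *Ier2* (-1.90), *Ier3* (-1.53), *Junb* (-1.06) and *Btg1* (-0.95). In β-cell transcription factors it was *Neurog3* (-5.21), *Mafa* (-2.16), *Pdx1* (-1.55), *Isl1* (-1.49), *Pax6* (-1.01) and *Nkx2-2* (-0.88), where *Neurog3* was below 3 CPM in all libraries. In genes of glucose sensing, secretion and granules it was *Ffar1* (-1.90), *G6pc2* (-1.73), *Rab27a* (-1.07), *Pcsk1* (-0.92) and *Kcnma1* (-0.75). In mitochondrial and lipid genes it was *Scd2* (-1.95), *Pcx* (-1.69), *Fh1* (-1.57), *Ndufa4* (-1.49), *Vldlr* (-1.18) and *Ndufc2* (-0.97). In the remaining genes it was *Steap4* (-3.46), *Pde10a* (-2.45), *Plet1* (-2.42), *Bik* (-2.29), *Hist1h1c* (-2.28), *Nipal1* (-1.91), *Txn1* (-1.09) and *Bad* (-0.76). *Bik* was at most 3.62 CPM in any library.

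The difference was positive for 19 genes. In heat shock genes it was *Stip1* (0.95), *Hspd1* (0.96), *Hspe1* (1.33) and *Hsp90aa1* (1.61). In stress and p53 genes it was *Ppp1r15a* (0.99), *Nupr1* (1.66), *Plk2* (1.86) and *Trp53inp1* (2.24). In iron genes it was *Slc11a2* (0.87), *Slc40a1* (1.01) and *Tfrc* (1.25). In the remaining genes it was *Mrpl12* (0.88), *Mrps6* (1.29), *Myc* (1.43), *Defb1* (1.55), *Aldh5a1* (1.60), *Cxcl16* (1.77), *Grpel2* (1.83) and *Slc20a1* (1.94).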

How the results depend on the processing

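Genes called between cytokines and cytokines with NMMA numbered 4978 with the replicate block, 1616 in a fit of the 4 libraries alone and 717 with cells thinned to 5000 UMIs, against 2433, and 513 to 1798 when 1 of these libraries was left out (2014 to 2109 for the other 4). The difference of the NMMA effects was called for 3342 genes with the block, 907 with total UMIs, 1458 without a filter on low counts and 67 with thinned cells, against 516, and for 21 to 466 when 1 library was left out. For untreated against NMMA the counts were 360 with the block, 198 without the filter, 15 with DESeq2 and 0 to 5 when 1 library was left out. The cause of these shifts was not tested, beyond fewer libraries, cells or UMIs entering some of them. Over the named genes, 2513 alternative values kept direction and side of the threshold, 361 lost the call, 78 gained it and 10 reversed. *Prkg2* reversed to 0.73 with thinned cells. When 1 library was left out, reversals occurred in 6 genes that were not called: *Atf4* ranged from -0.016 to 0.48, *Gbp2* from -0.59 to 0.041, *Gbp5* from -0.26 to 0.067, *Nkx6-1* from -0.11 to 0.040, *Prkg2* from -0.27 to 0.21 and *Slc39a14* from -0.51 to 0.075. Apart from the genes given with it, the block ended no call of a named gene. Low depth limits genes under about 1 CPM.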
